A study of Mus musculus with 19 samples.

Results

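*Cd72* and 9 further genes of inhibitory signalling were followed in retinal microglia during experimental choroidal neovascularization (CNV). The genes were *Cd72*, *Pirb*, *Lilrb4a*, *Cd300a*, *Cd300lf*, *Sirpa*, *Siglece*, *Cd33*, *Lair1* and the phosphatase gene *Ptpn6*. They were chosen by name, with earlier results of these data known, and all 10 were found among the 27299 genes of the expression table. Microglia from 6 samples taken on day 3 after argon laser treatment with 6 burns per eye (CNV d3) were compared with 6 samples from unlasered mice (control) by bulk RNA-seq, and all mice were 8 weeks old. The labels give C57BL/6J mice and a sort for CD45+ cells. The methods give *Cx3cr1* GFP/+ mice on that background, which carry GFP at 1 *Cx3cr1* allele in both groups, and a sort for CD45 low, CD11b+, CX3CR1+, Ly6C- and Ly6G- cells. Neither source states whether the samples of a group came from separate animals, so the p-values measure the spread between these samples, which may in part be technical.

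Inhibitory receptors of myeloid cells carry an immunoreceptor tyrosine-based inhibitory motif (ITIM) on the inner side of the membrane. Src family kinases such as LYN phosphorylate its tyrosine, and the phosphatase SHP-1, the product of *Ptpn6*, then docks with its SH2 domains and removes phosphate from activating pathways that start at ITAM adaptors such as TYROBP. Microglia are known for high SIRPA, the receptor of the CD47 signal on healthy cells, and for sialic acid receptors of the Siglec family. CD72 is best known as a coreceptor of B cells and is also made by macrophages.

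The motif was read from the coding sequences of Gencode M21 (GRCm38) as a tyrosine codon with a codon for serine, isoleucine, valine or leucine 2 codons before it and a codon for isoleucine, valine or leucine 3 codons after it. On the inner side of the most hydrophobic stretch of 19 codons, 17 such runs of 18 bases were found in 8 of the 9 receptors. No run was found there in *Cd33*, whose inner side had 135 codons with 2 for tyrosine. This says only that the pattern is not on that side in the coding sequence read, and *Cd33* was among the genes chosen by name. The pattern is common, since 13.1% of 15688 coding sequences held it in their last 100 codons and 12.8% in their first 100. The runs of the receptors with the largest increase and of the most abundant receptor are shown on the coding strand, 5′ to 3′, with the tyrosine codon in capitals.
Cd72, chr4:43454498-43454515 (minus strand): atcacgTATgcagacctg
Cd72, chr4:43454306-43454323 (minus strand): ctcaccTACgagaatgtg
Cd300lf, chr11:115117648-115117665 (minus strand): ctctgtTATgcagacctg
Cd300lf, chr11:115117112-115117129 (minus strand): gtttcaTATgccgctctg
Sirpa, chr2:129629954-129629971 (plus strand): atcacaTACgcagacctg
Sirpa, chr2:129630077-129630094 (plus strand): ctcaccTATgctgacctg
Sirpa, chr2:129630149-129630166 (plus strand): tcagagTATgctagtgtc
The first runs of *Cd72*, *Cd300lf* and *Sirpa* had the same 9 bases after the tyrosine codon, although the 3 genes lie on different chromosomes and changed in different directions in the comparison of CNV d3 with control.

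The values are normalized counts, that is reads per gene divided by a size factor of the sample. The total was between 10963178 and 22335233 reads per control sample and between 23532260 and 29523018 per CNV d3 sample, so that every CNV d3 sample was the deeper one, and 1 read was worth 0.739 to 1.99 normalized counts. Fold changes are on the scale of log2(normalized count + 1) from limma over all genes, with Benjamini-Hochberg adjusted p (padj). DEG had an absolute log2FC above 1.5 and a padj under 0.05. In bulk samples, fewer cells of a type and less RNA per cell cannot be told apart.

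Of the 10 genes, 3 were higher in CNV d3 (*Cd72*, *Cd300lf* and *Pirb*), 4 were lower (*Cd300a*, *Siglece*, *Lair1* and *Sirpa*) and 3 did not pass the test (*Cd33*, *Ptpn6* and *Lilrb4a*). Over all genes, 8.29% were higher and 4.57% were lower at this threshold. These and the following shares are over 27299 genes without a filter, of which 9712 beside *Cd72* had a mean of at least 100 normalized counts. The shares are thus not matched to the level of the 10 genes. Increased DEG were *Cd72* and *Cd300lf*, beside 3.91% of all genes. None of the 10 genes was a decreased DEG in limma, edgeR or DESeq2, beside 1.07% of all genes in limma. The lowest log2FC of the 10 genes under any setting tried was -1.024. The groups did not overlap for *Cd72* and *Cd300lf*, with every CNV d3 value above every control value as in 4.64% of all genes, nor for *Sirpa*, *Siglece* and *Lair1*, with every CNV d3 value below every control value as in 2.83% of all genes. The median log2FC of the 10 genes was -0.16, and that of all genes was 0.15.

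**Figure D1:**
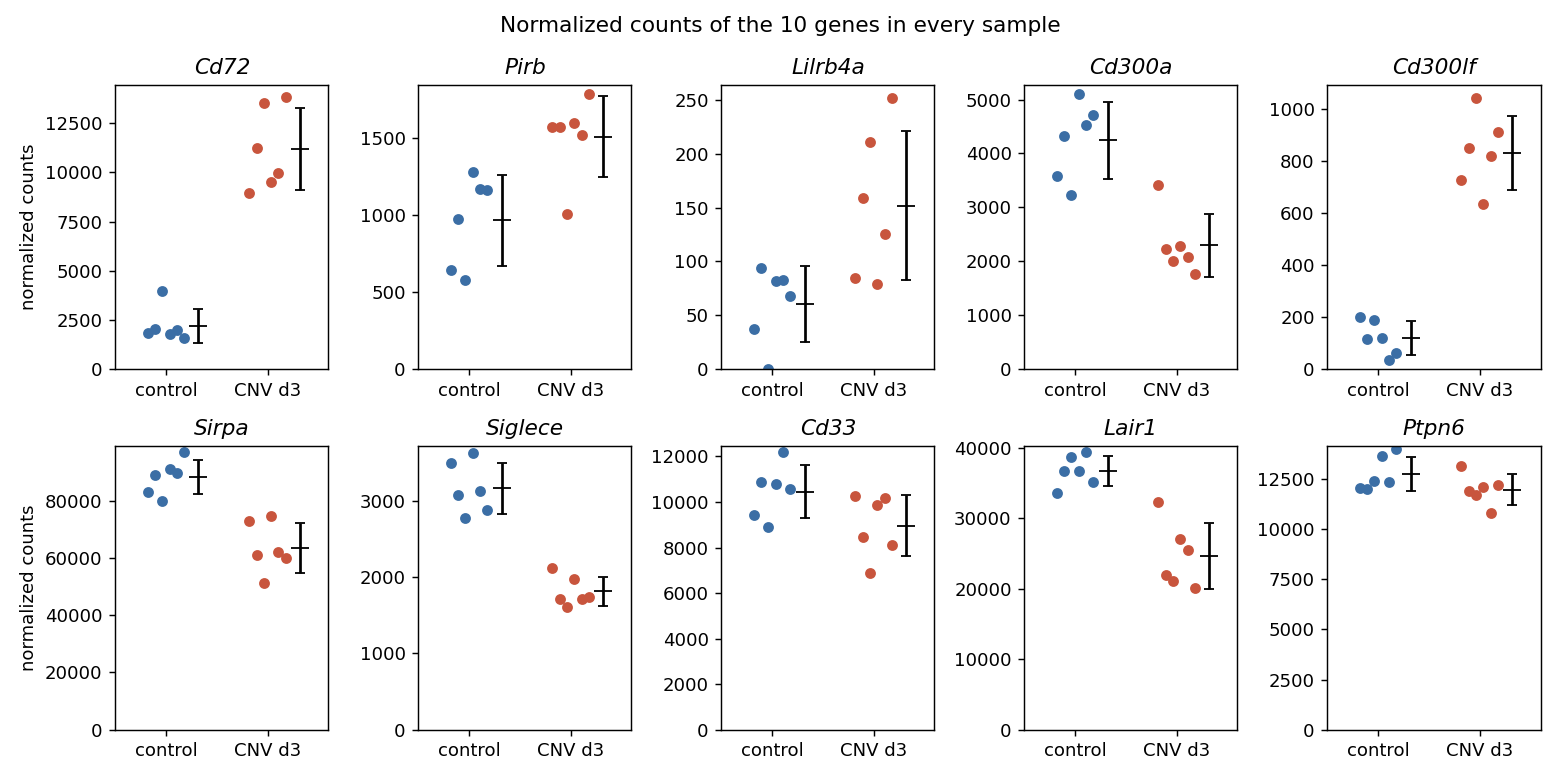
Normalized counts (y axes, from 0) of the 10 genes in the 6 control samples (blue points) and the 6 CNV d3 samples (red points), with the mean and SD of each group in black. *Cd72* and *Cd300lf* lie wholly above control in CNV d3, while *Sirpa*, *Siglece* and *Lair1* lie wholly below it.

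*Cd72* (ENSMUSG00000028459, chr4:43446462-43454628, minus strand) encodes a lectin-like receptor that binds the semaphorin SEMA4D. Its normalized counts in control replicates 1 to 6 were 1818, 2030, 3963, 1763, 2001 and 1553. In CNV d3 replicates 1 to 6 they were 8972, 11262, 13559, 9521, 9978 and 13830. All CNV d3 samples were above all control samples, and control replicate 3 stood above the other controls. The log2FC was 2.41 (SE 0.19, 95% confidence interval 2.00 to 2.82, padj = 5.15e-06 in limma), a 5.31-fold increase. In the annotation, 41.6% of the exon length of *Cd72* is shared with exons of *Tesk1*, a kinase gene with a mean of 638 normalized counts in control and 980 in CNV d3 (log2FC 0.66, padj = 0.0145). Reads in shared exons were assigned to neither gene at the default setting of the counting tool, so the level of *Cd72* rests on the remaining exons.

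*Cd300lf* (ENSMUSG00000047798, chr11:115116214-115133992, minus strand) encodes a receptor for lipids such as phosphatidylserine and ceramide. Control replicates 1 to 6 had 201, 113, 187, 119, 34.1 and 59.6 normalized counts. The normalized counts of CNV d3 replicates 1 to 6 were 727, 850, 1042, 634, 819 and 910. The lowest CNV d3 sample was above the highest control. The log2FC was 3.01 (SE 0.37, 95% confidence interval 2.23 to 3.80, padj = 0.000112 in limma).

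*Cd300a* (ENSMUSG00000034652, chr11:114890041-114904654, plus strand) encodes a related receptor of phosphatidylserine and phosphatidylethanolamine and lies 211.6 kb from *Cd300lf*. Its normalized counts in control replicates 1 to 6 were 3578, 4322, 3221, 5102, 4519 and 4705. In CNV d3 replicates 1 to 6 they were 3416, 2219, 1997, 2279, 2075 and 1766. CNV d3 replicate 1 lay within the range of the controls, and the other 5 CNV d3 samples were below it. *Cd300a* fell, with a log2FC of -0.90 (SE 0.15, 95% confidence interval -1.23 to -0.57, padj = 0.00128 in limma), so these related genes changed in opposite directions.

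*Pirb* (ENSMUSG00000058818, chr7:3711409-3720391, minus strand) encodes a receptor of MHC class I that also binds myelin proteins and angiopoietin-like proteins. Control replicates 1 to 6 had 639, 970, 575, 1276, 1167 and 1162 normalized counts. The normalized counts of CNV d3 replicates 1 to 6 were 1567, 1569, 1005, 1594, 1519 and 1783. The groups overlapped through CNV d3 replicate 3, and the other 5 CNV d3 samples were above all controls. The log2FC was 0.68 (SE 0.21, 95% confidence interval 0.24 to 1.13, padj = 0.0436 in limma). This call was close to the threshold and was lost in 10 of the 12 fits that left out 1 sample, with padj between 0.0368 and 0.129. *Pirb* shares sequence with the activating *Pira* genes, and reads that map to several places were not counted, so its level is uncertain to that extent.

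*Lilrb4a* (ENSMUSG00000112148, chr10:51490956-51496611, plus strand) encodes a receptor of the same family that binds fibronectin. Its normalized counts in control replicates 1 to 6 were 37.6, 94.2, 0, 82.2, 82.3 and 67.5. In CNV d3 replicates 1 to 6 they were 85.0, 159, 211, 78.8, 126 and 252. The groups overlapped, and 4 of the 6 CNV d3 samples were above all controls. The log2FC of 2.01 (SE 0.93, 95% confidence interval 0.02 to 4.0, padj = 0.193 in limma) did not pass the test. It was 0.99 without control replicate 3, which had no read of the gene. Exons of *Lilrb4a* overlap those of other annotated genes over 35.9% of their length, and its near copy *Lilrb4b* can take its reads.

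*Sirpa* (ENSMUSG00000037902, chr2:129592835-129632228, plus strand) had the highest level of the 10 genes. Control replicates 1 to 6 had 83198, 89070, 79888, 91251, 89737 and 97046 normalized counts. The normalized counts of CNV d3 replicates 1 to 6 were 72918, 60952, 51189, 74621, 61998 and 59880. All CNV d3 samples were below all controls, with replicate 3 the lowest. The log2FC was -0.48 (SE 0.09, 95% confidence interval -0.67 to -0.30, padj = 0.00168 in limma).

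*Lair1* (ENSMUSG00000055541, chr7:4003402-4063204, minus strand), which encodes a receptor of collagens and of C1q, lies 283 kb from *Pirb*. Its normalized counts in control replicates 1 to 6 were 33657, 36720, 38641, 36754, 39340 and 35101. In CNV d3 replicates 1 to 6 they were 32306, 21918, 21030, 27066, 25523 and 20063. CNV d3 replicate 1 was just below the lowest control and the others were well below it. The log2FC was -0.59 (SE 0.10, 95% confidence interval -0.81 to -0.37, padj = 0.00141 in limma). The calls of *Lair1* and *Sirpa* were lost under upper-quartile scaling over the genes with reads in each sample (log2FC -0.32 with padj = 0.0560 and -0.21 with padj = 0.169). This scaling moved the median log2FC of genes with a mean of at least 100 by 0.27.

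*Siglece* (ENSMUSG00000030474, chr7:43651070-43660161, minus strand) and *Cd33* (ENSMUSG00000004609, chr7:43524216-43544428, minus strand) encode receptors of sialic acids and lie 106.6 kb apart. The normalized counts of *Siglece* in control replicates 1 to 6 were 3494, 3077, 2774, 3623, 3136 and 2878. In CNV d3 replicates 1 to 6 they were 2120, 1719, 1611, 1969, 1711 and 1744. All CNV d3 values were below all control values, and the log2FC was -0.80 (SE 0.10, 95% confidence interval -1.02 to -0.59, padj = 0.000144 in limma). The normalized counts of *Cd33* in control replicates 1 to 6 were 9421, 10866, 8881, 10807, 12208 and 10579. In CNV d3 replicates 1 to 6 they were 10251, 8479, 6895, 9862, 10163 and 8107. The groups of *Cd33* overlapped, and its log2FC of -0.23 (SE 0.11, 95% confidence interval -0.46 to 0.0014, padj = 0.201 in limma) did not pass the test.

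*Ptpn6* (ENSMUSG00000004266, chr6:124720707-124738714, minus strand), the gene of SHP-1, had the smallest standard error of the 10 genes. Control replicates 1 to 6 had 12069, 12029, 12432, 13660, 12380 and 14015 normalized counts. The normalized counts of CNV d3 replicates 1 to 6 were 13167, 11915, 11722, 12089, 10816 and 12196. The groups overlapped, and the log2FC of -0.09 (SE 0.07, 95% confidence interval -0.24 to 0.05, padj = 0.454 in limma) did not pass the test. Under the upper-quartile scaling named for *Lair1* the log2FC of *Ptpn6* was 0.18 and that of *Cd33* 0.04, so the sign of both depended on the scaling.

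**Figure D2:**
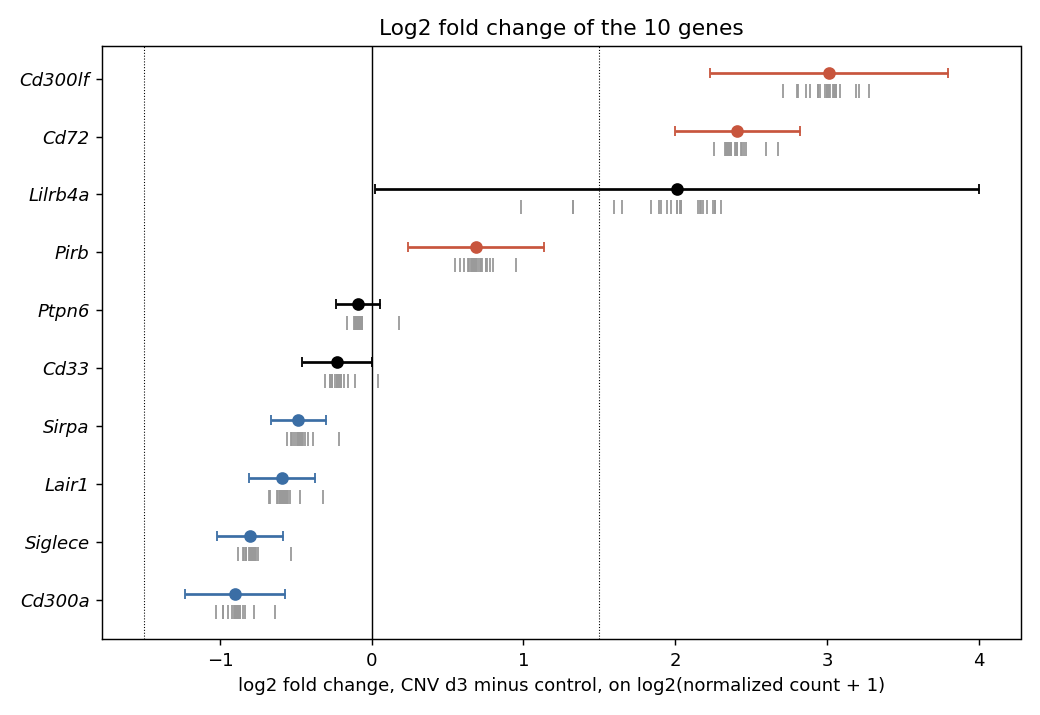
Log2FC of CNV d3 against control (x axis) for the 10 genes, with 95% confidence intervals. Red marks genes that were higher and blue genes that were lower at a padj under 0.05, black genes that did not pass the test, grey ticks the log2FC under each other setting, and dotted lines an absolute log2FC of 1.5. Only *Cd300lf* and *Cd72* lie beyond 1.5 with a padj under 0.05, and ticks of *Cd33* and *Ptpn6* fall on both sides of 0.

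To compare levels between genes, normalized counts were divided by the exon length in kb. For *Cd72*, *Lilrb4a* and *Ptpn6* this length includes exons shared with other genes, whose reads were not counted, so their levels on this scale are too low, for *Cd72* by more than 1.5 times. In control, *Sirpa* was highest at 17993 ± 1237 (SD, n = 6) normalized counts per kb, followed by *Lair1* (4910 ± 284) and *Ptpn6* (4555 ± 305), which overlapped. *Siglece* (1711 ± 181) and *Cd33* (1346 ± 151) overlapped, as did *Cd300a* (895 ± 150) and *Cd72* (639 ± 259). *Pirb* followed at 216 ± 65.9, and *Cd300lf* (23.1 ± 12.9) and *Lilrb4a* (11.6 ± 6.80) came last and overlapped.

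In CNV d3, *Sirpa* was again highest at 12949 ± 1788 (SD, n = 6) normalized counts per kb. *Cd72* had 3269 ± 610, at rank 4 after rank 7 in control, overlapping with *Lair1* (3298 ± 618), which overlapped with *Ptpn6* (4277 ± 272). *Cd33* (1153 ± 174) overlapped with *Siglece* (980 ± 103), and *Cd300a* (484 ± 122) with *Pirb* (337 ± 58.6). *Cd300lf* reached 161 ± 27.7 and *Lilrb4a* 29.1 ± 13.3, without overlap. Of the summed level per kb of the 9 receptors, *Cd72* made up 2.33% ± 1.05 in control (1.56% to 4.44%) and 14.7% ± 3.91 in CNV d3 (10.3% to 20.0%). The share of *Sirpa* was 64.8% ± 1.82 in control and 57.0% ± 2.81 in CNV d3.

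With only the 1999 bases of *Cd72* exon that are shared with no other gene, and the same rule for the other genes, *Cd72* had 1094 ± 444 (SD, n = 6) normalized counts per kb in control, at rank 6 and overlapping with *Cd33* and *Cd300a*. In CNV d3 it had 5596 ± 1044, at rank 2 and overlapping with *Ptpn6* (4597 ± 292). Its share of the summed level of the 9 receptors was then 3.92% ± 1.73 in control (2.64% to 7.37%) and 22.7% ± 5.44 in CNV d3 (16.4% to 29.9%), while that of *Sirpa* was 63.7% ± 2.16 and 51.6% ± 3.72. *Cd72* was thus at a higher rank in CNV d3 than in control with either length, and its place relative to *Lair1* and *Ptpn6* depended on the length. This length was chosen after seeing the data.

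**Figure D3:**
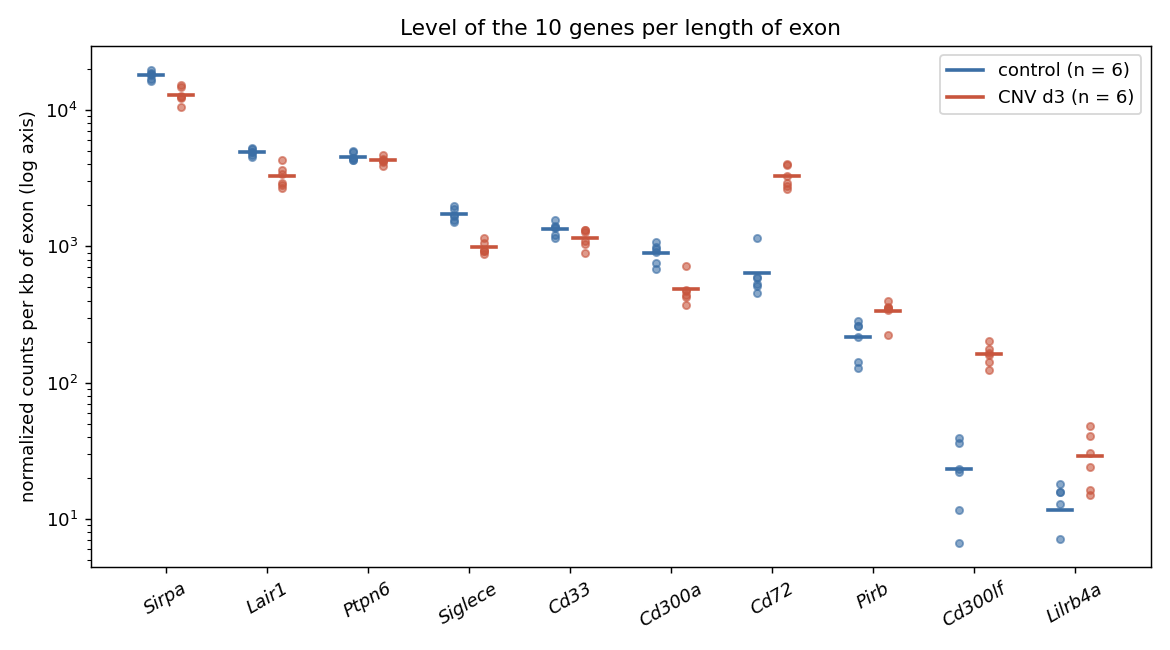
Normalized counts per kb of exon (y axis, logarithmic) of the 10 genes, ordered by their control mean, in control (blue) and CNV d3 (red). Points are samples and lines are group means, and the control sample of *Lilrb4a* with a value of 0 cannot be drawn on this axis. *Cd72* rises from 639 to 3269 with its whole exon length, which includes the exons shared with *Tesk1*, and from 1094 to 5596 with its unshared exons, which are not drawn.

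The ligand genes of these receptors were called in both directions in the sorted cells, with 4 of 16 measured genes higher and 2 lower. Ligands made by other cells were not measured, so these values do not give the amount of ligand around the receptors. *Fn1*, the gene of fibronectin, had 22.1 ± 30.0 (SD, n = 6, as for the values that follow) normalized counts in control and 19206 ± 17637 in CNV d3 (log2FC 10.70, padj = 2.03e-05 in limma). *Angptl2*, which encodes an angiopoietin-like protein, had 2.15 ± 5.26 and 188 ± 80.3 (log2FC 6.82, padj = 6.81e-05 in limma). *C1qa*, a chain of complement C1q, was lower (log2FC -0.52, padj = 0.00107 in limma), as was *Mag*, a myelin protein gene (log2FC -0.61, padj = 0.0478 in limma). The other C1q chain genes, *C1qb* (log2FC 0.014, padj = 0.931 in limma) and *C1qc* (log2FC -0.17, padj = 0.271 in limma), did not pass the test. *Sema4d*, the ligand gene of CD72, had 14796 ± 2100 in control and 18191 ± 1890 in CNV d3 and did not pass the test (padj = 0.0601 in limma). *Cd47* had 7040 ± 1599 and 7137 ± 777 (padj = 0.847 in limma).

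Among other ITIM receptors, 4 of 16 measured genes were higher and 1 was lower. *Fcgr2b*, the inhibitory Fc receptor, rose from 11621 ± 970 to 17384 ± 1231 normalized counts (log2FC 0.58, padj = 0.000137 in limma). *Pilra*, a paired receptor gene, rose from 2052 ± 455 to 5437 ± 817 (log2FC 1.42, padj = 2.20e-05 in limma). *Btla* rose at a low level, with a log2FC of 2.91 (padj = 0.0316 in limma), and *Pecam1* fell, with a log2FC of -1.46 (padj = 0.0236 in limma). Of 4 inhibitory receptors without an ITIM, only *Vsir*, which encodes the checkpoint receptor VISTA, passed the test, falling from 56056 ± 3106 to 31106 ± 7578 (log2FC -0.89, padj = 0.000519 in limma).

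The activating paralogs of the receptors were called in both directions as well, with 3 of 13 measured genes higher and 3 lower in limma. On recovered reads, edgeR called 2 of them, *Lilra5* and *Siglech*, both lower, and DESeq2 called 7. *Sirpb1a* (log2FC 3.46, padj = 0.0181 in limma) and *Sirpb1c* (log2FC 2.78, padj = 0.0188 in limma), relatives of *Sirpa*, were higher at means of at most 38.2 normalized counts. *Cd300ld* was higher (log2FC 1.81, padj = 0.0276 in limma), and *Lilra5* was lower (log2FC -1.19, padj = 0.000643 in limma). *Lilrb4b*, the near copy of *Lilrb4a* and listed as *Lilr4b*, had 74.0 ± 55.5 in control and 256 ± 130 in CNV d3 and did not pass the test (padj = 0.0931 in limma). *Pira2* had 11.2 ± 14.8 and 16.2 ± 11.2 (padj = 0.464 in limma), and *Pira1*, *Pira6*, *Pira7*, *Pira12* and *Pira13* were not analysed here.

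Of 18 kinases and effectors of ITIM, 3 were higher and 4 were lower. *Lyn*, the kinase gene, fell from 24788 ± 1854 to 20564 ± 280 normalized counts (log2FC -0.27, padj = 0.00802 in limma). *Ptpn11*, the gene of the related phosphatase SHP-2, rose from 528 ± 141 to 852 ± 135 (log2FC 0.72, padj = 0.0203 in limma), and *Inpp5d*, the gene of the lipid phosphatase SHIP-1, had 20112 ± 867 and 18946 ± 1410 (padj = 0.435 in limma). *Pag1*, an adaptor gene, fell (log2FC -1.01, padj = 0.000123 in limma), while the kinase gene *Fyn* (log2FC 0.87, padj = 0.0269 in limma) and the adaptor gene *Dok2* (log2FC 3.55, padj = 0.0344 in limma) rose.

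Of 12 ITAM adaptors and signalling genes, 3 were higher and 1 was lower. *Trem2*, a receptor gene that signals through TYROBP, fell from 10109 ± 998 to 6051 ± 1156 normalized counts (log2FC -0.76, padj = 0.000741 in limma). *Tyrobp* had 26806 ± 4113 and 23345 ± 3271 (padj = 0.270 in limma). *Pik3ap1* (log2FC 0.49, padj = 0.00299 in limma), *Syk* (log2FC 0.29, padj = 0.0466 in limma) and *Vav1* (log2FC 0.24, padj = 0.0242 in limma) rose.

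**Figure D4:**
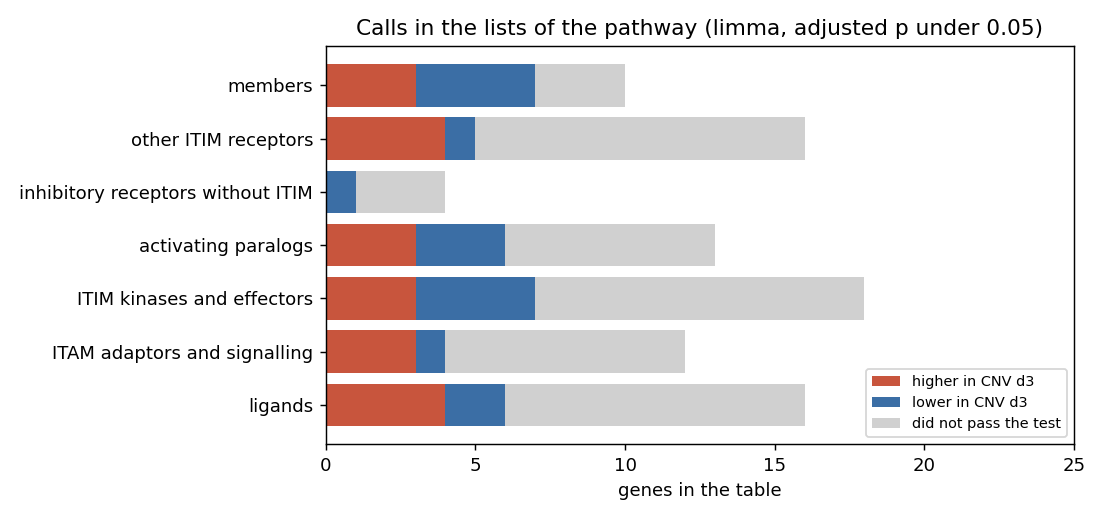
Number of measured genes (x axis) that were higher (red), lower (blue) or did not pass the test (grey) in CNV d3 at a padj under 0.05, for the 10 genes (members) and 6 lists of their pathway. In limma, every list but that of inhibitory receptors without ITIM holds genes called in both directions, while edgeR called only lower genes among the activating paralogs.

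The gate was checked against marker genes. Microglia markers were abundant in all samples, and 7 of 12 were lower and 1 was higher in CNV d3. Monocyte markers summed to 243 to 1294 normalized counts in control and 1466 to 4837 in CNV d3, with 5 of 12 genes higher, and *Ly6c2* and *Chil3* at 0 in all controls. Dendritic cell markers summed to 836 to 1734 and 2159 to 5350, with 6 of 9 genes higher and *Cd209a* at 0 in all controls. The largest part of the monocyte sum was *Ms4a4c*, with a mean of 411 in control and 1241 in CNV d3. That of the dendritic cell sum was *Itgax*, with 692 and 1852. All 10 cell division genes were higher in CNV d3, with sums of 98.4 to 1172 and 9035 to 22544. Of the B cell markers, none of 8 passed the test in limma, with 1 at an unadjusted p under 0.05 and *Ighd* called by edgeR and DESeq2, the sums were 12679 to 15507 in control and 10336 to 15142 in CNV d3, and most of each sum was *Ighm*, with a mean of 12220 in control and 11538 in CNV d3. *Cd79b* had a mean of 1315 and 1075 and *Cd79a* of 5.42 and 2.04, and *Ms4a1*, *Pax5* and *Blk* were not analysed here.

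No gene passed the test in limma among 6 nonclassical monocyte, 7 T and NK cell and 8 photoreceptor markers, with 1, 0 and 1 at an unadjusted p under 0.05. On recovered reads, *Sag* of the photoreceptor markers was called by edgeR and DESeq2, *Eno3* of the nonclassical monocyte markers by DESeq2 alone, and none of the T and NK cell markers by either tool. In limma, 1 of 6 neutrophil and 2 of 7 border macrophage markers were higher, with none of the border macrophage markers called by edgeR, and *F13a1* stands in the lists of monocytes and border macrophages. Photoreceptor markers summed to 845 to 7306 in control and 655 to 13119 in CNV d3. The highest of the controls was replicate 3 (7306, against 1954 in the next control), which also had the most *Cd72* of the controls. In CNV d3 the highest photoreceptor sum was in replicate 4, where *Cd72* was among the lowest of that group.

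Within CNV d3, replicates 3 and 6 had the most *Cd72* and also the highest sums of monocyte, dendritic cell and cell division genes, while replicates 1 and 4 had the least *Cd72* and the lowest sums of these lists. Control replicate 3 had the most *Cd72* and the highest monocyte sum of the controls, but not the highest sums of dendritic cell markers (1382, against 1734 in replicate 2) or of cell division genes (795, against 1172 in replicate 1). Whether cells that express the genes of these lists had a part in the change of *Cd72* was not tested. Without CNV d3 replicates 3 and 6 the log2FC of *Cd72* was 2.25 (padj = 0.00101 in limma) and that of *Cd300lf* was 2.89 (padj = 0.00778 in limma), the 4 lower genes were still called, and *Pirb* was not (padj = 0.0974 in limma). These replicates were picked after seeing the values. The remaining CNV d3 samples still had higher sums of all 3 lists than every control (monocyte sum at least 1466, against at most 1294). This fit therefore does not test the part of such cells.

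**Figure D5:**
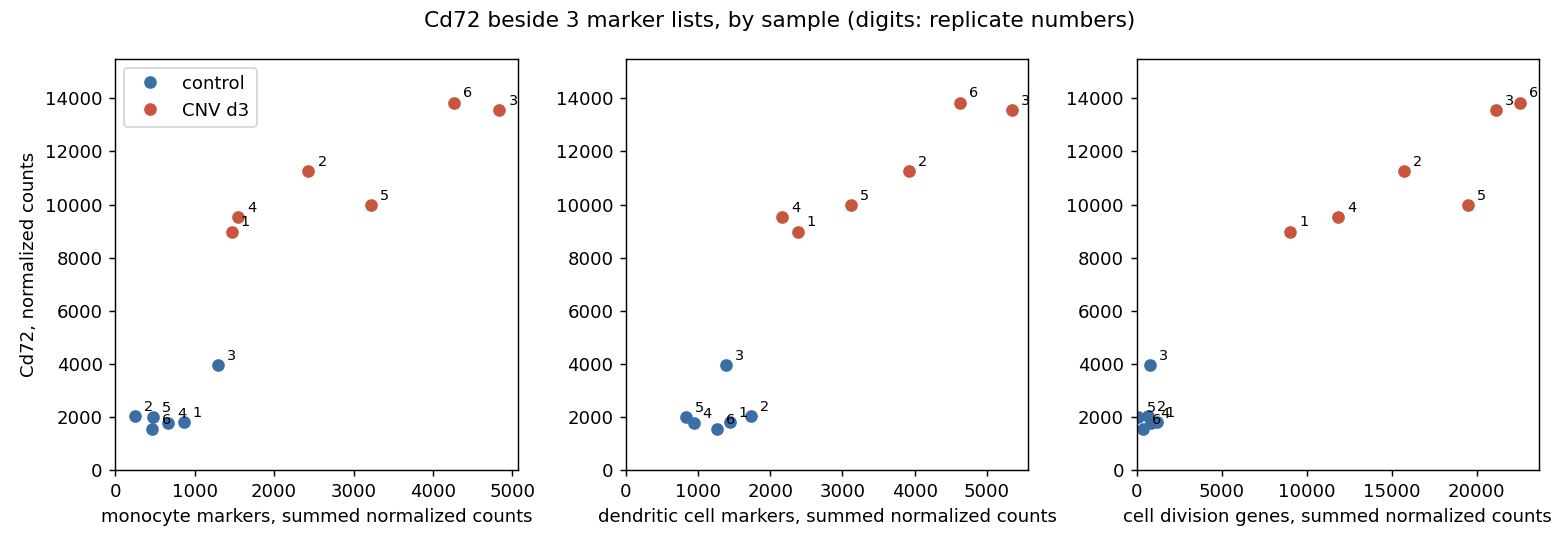
Normalized counts of *Cd72* (y axis, from 0) against the summed normalized counts of monocyte markers, dendritic cell markers and cell division genes (x axes) in the 6 control (blue) and 6 CNV d3 (red) samples, with replicate numbers beside the points. CNV d3 replicates 3 and 6 lie at the upper right of all 3 panels.

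Across the 12 samples, the genes whose log2 values followed *Cd72* most closely among 9712 genes with a mean of at least 100 normalized counts were *Rpl3* (Pearson r = 0.990), *Cspg4* (0.985), *Tpm4* (0.984), *Coro1c* (0.983) and *AI506816* (0.981). All 5 were higher in CNV d3, with log2FC from 0.78 for *Coro1c* to 7.22 for *Cspg4*. The correlations are a description, since the samples share the difference between the groups.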

How the data were processed

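Retinal microglia of 6 control and 6 CNV d3 samples were profiled with the SMARTer v4 kit and single reads of 50 cycles. The authors mapped reads with STAR 2.7.2b to Gencode M25, merged the BAM files of 2 flow cells per sample and counted reads per gene with featureCounts 1.6.4 at default parameters. The deposited signal is this count divided by the size factor from DESeq2 1.22.2. The file also holds the authors' group means, log2 fold changes and adjusted p-values, which were not used. Groups and replicate numbers came from the labels, in which all control samples and CNV d3 replicate 4 appear as a pair of entries, each pair counted as 1 sample. The other CNV d3 samples appear as 1 entry each. This difference follows the groups except for CNV d3 replicate 4, and its effect was not tested.

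The comparison was made with limma 3.58.1 in R 4.3.3 on log2(value + 1) with a variance trend, over 27299 genes without a filter. Every value was a whole multiple of the value of 1 read (100% of values, tolerance 0.0001 reads), so reads were recovered for edgeR 4.0.16, DESeq2 1.42.0 and voom. Lengths of 27238 genes came from Gencode M21, also GRCm38. On simulated data of this comparison with 200 of 19919 genes changed by a log2FC of 1.5, limma recovered 155 with 9 false calls. On the same data, edgeR recovered 156 with 7 false calls, DESeq2 179 with 72 and voom 147 with 16. The changed genes had an expected count of at least 100 reads, so the recovery does not cover genes with fewer reads.

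The 10 genes and all lists were chosen with earlier results of these data known. Named were the 10 genes, up to 4 genes per pathway list with the largest absolute log2FC at a padj under 0.05, a few set genes (*Sema4d*, *Cd47*, *Lyn*, *Ptpn11*, *Inpp5d*, *Tyrobp*, *Trem2*, *Fcgr2b*, *Lilrb4b*, *Pira*) and the 5 genes most like *Cd72*. *C1qb* and *C1qc* were named beside *C1qa*. Other pseudocounts, scalings, filters, tools, thinned reads, a replicate block and leaving out samples were tried.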

Additional observations from a re-analysis of the deposited data

Results flagged for a closer look

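In 20 groups of 6 samples (10 genes in control and CNV d3), a sample stood apart by Dixon's test in 3, where chance gives about 1 in 20. *Cd72* had 3963 normalized counts in control replicate 3, against 2030 in the next control. *Pirb* had 1005 in CNV d3 replicate 3, against 1519 in the next lowest CNV d3 sample. *Cd300a* had 3416 in CNV d3 replicate 1, against 2279 in the next highest.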

How the results depend on the processing

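Of 250 log2FC of the 10 genes under other settings, 231 kept their direction and their side of the threshold. *Cd72*, *Cd300lf*, *Cd300a* and *Siglece* were called in all of them. Under the planned upper-quartile scaling, taken over the genes with reads in each sample, 2 genes rather than 4 were lower, and *Cd33* (0.038) and *Ptpn6* (0.18) changed sign. Control samples had 15076 to 17224 genes with reads and CNV d3 samples 18276 to 19116, so this quartile was taken over fewer genes in control. After that result was seen, the quartile was also taken over the genes with reads in any sample, and all 4 lower calls were kept there, while *Pirb* was lost (padj = 0.0726 in limma). *Pirb* was also lost with a pseudocount of 5 (padj = 0.0517), without a variance trend (0.0909) and with thinned reads (0.0579). Leaving out 1 sample gave *Pirb* a log2FC of 0.55 to 0.80 and *Lilrb4a* 0.99 to 2.30. The settings with CNV d3 replicates 3 and 6 left out and with groups that do not overlap were also chosen after seeing the data. With the longest transcript as length, *Lair1* and *Ptpn6*, *Siglece* and *Cd33* in control, and *Lair1* and *Cd72* in CNV d3, exchanged ranks. With the exon length shared with no other gene, added after seeing the data, *Cd72* had rank 6 in control and 2 in CNV d3. Deviations of same-numbered samples correlated between -0.053 and 0.071, so no shared deviation was seen. This cannot exclude that same-numbered samples were collected or handled together. With a replicate block, 3 genes were higher, 4 lower and 2 were DEG, and the padj of *Pirb* was 0.0182.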
